A study of Mus musculus with 6 samples.

Results

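Transcripts of the proteasome subunit genes were examined in mouse heart RNA recovered with an antibody against Cnot3, with a control antibody, and in the starting lysate. The members were all gene symbols made of Psma, Psmb, Psmc or Psmd and a number, which gave 39 of the 24421 symbols in the deposited table. Of these, 19 were grouped by symbol as core particle (8 Psma and 11 Psmb) and 20 as regulatory particle (6 Psmc and 14 Psmd). The Psmd symbols include Psmd5, Psmd9 and Psmd10, assembly chaperones that leave before the proteasome is complete. The lysates were made from whole hearts of C57BL6/J mice aged 4 weeks, with no genetic change or drug named for any group. The groups were RNA immunoprecipitates made with the anti-Cnot3 antibody (Cnot3 RIP), immunoprecipitates made with control antibody (control IgG RIP) and RNA of the lysate itself (Input), with 2 libraries each. RNA immunoprecipitation (RIP) pulls a protein out of a lysate with an antibody and sequences the RNA that comes down with it. Whether the 2 libraries of a group came from separate animals is not stated in the labels, so p-values reflect only how far the libraries differ, and that spread may be technical.

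The 26S proteasome degrades proteins that carry ubiquitin chains. Its core particle is a barrel of stacked rings, in which the alpha subunits (Psma) form the outer, gated rings and the beta subunits (Psmb) form the inner rings with the proteolytic sites. The regulatory particle caps the barrel: the Psmc subunits are a ring of ATPases that unfold substrates, and the Psmd subunits, apart from those chaperones, bind ubiquitin, remove it or hold the cap together. Cardiac muscle depends on the proteasome for turnover of its contractile proteins. Cnot3 belongs to CCR4-NOT, the deadenylase complex that trims the poly(A) tail of an mRNA ahead of its decay. The study asked which mRNAs in the heart are targets of Cnot3, and the comparison with control IgG RIP bears on whether proteasome subunit mRNAs were among those recovered with it.

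The 6 libraries held 15713318 to 33479580 reads, of which 6022 to 13558 belonged to the members. Rn45s, the ribosomal RNA precursor, took 52.1% ± 1.39 of the reads in Cnot3 RIP, 59.8% ± 0.609 with control IgG, and 78.8% ± 0.647 in Input (SD, n = 2 each). Across genes, Cnot3 RIP replicate 1 and control IgG RIP replicate 2 were the closest of the 15 pairs of libraries (Pearson's r 0.975 on the log2 scale), while the pair of Cnot3 RIP libraries had r = 0.965 and the pair of control IgG RIP libraries r = 0.971. All 10 cardiomyocyte markers were measured, at a summed 25520 to 26110 scaled CPM in Cnot3 RIP, 20610 to 35960 with control IgG, and 21070 to 25620 in Input. Myh6 was the largest part of the sum in every library, at 8216 and 10400 scaled CPM in Input. Scaled CPM are the deposited CPM (reads scaled to a common library total) divided by a TMM factor, which aligns the bulk of the genes between libraries.

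Core particle transcripts summed to 135.7 and 124.6 scaled CPM in Cnot3 RIP, 131 and 139.7 with control IgG, and 186.8 and 213.1 in Input. Both kinds of immunoprecipitate overlapped each other and lay below both Input libraries on this scale. Regulatory particle transcripts summed to 266 and 281.8 scaled CPM in Cnot3 RIP, 346.4 and 256.2 with control IgG, and 369.3 and 413.5 in Input. Here too every Input library was above every immunoprecipitate, and control IgG RIP replicate 1 was the highest of the other 4. Scaled as CPM over the reads outside Rn45s, the core particle had 378 ± 64.3 in Cnot3 RIP, 378 ± 86.4 with control IgG, and 614 ± 28.9 in Input (SD, n = 2 each). On that same scale the regulatory particle had 791 ± 55.0 in Cnot3 RIP, 821 ± 22.8 with control IgG, and 1202 ± 40.9 in Input. In the CPM as deposited, which count Rn45s in the library total, the order was another: the core particle summed to 198.7 and 162.6 CPM in Cnot3 RIP, 126 and 178.4 CPM with control IgG, and 128.7 and 131.8 CPM in Input. The regulatory particle summed to 389.4 and 367.8 CPM in Cnot3 RIP, 333.1 and 327.2 CPM with control IgG, and 254.5 and 255.8 CPM in Input. There both Cnot3 RIP libraries were the highest and both Input libraries the lowest.

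The balance between the particles differed between the 3 groups by less than the spread of the libraries. The core sum divided by the regulatory sum was 0.510 and 0.442 in Cnot3 RIP, 0.378 and 0.545 with control IgG, and 0.506 and 0.515 in Input. The means were 0.476 ± 0.0482 in Cnot3 RIP, 0.462 ± 0.118 with control IgG, and 0.511 ± 0.00670 in Input (SD, n = 2 each). The Input libraries were nearly equal, while the control IgG RIP libraries lay on either side of all the others. With 2 libraries against 2, an exact permutation test cannot give a p under 0.333, so no test of the ratio is given.

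**Figure D1:**
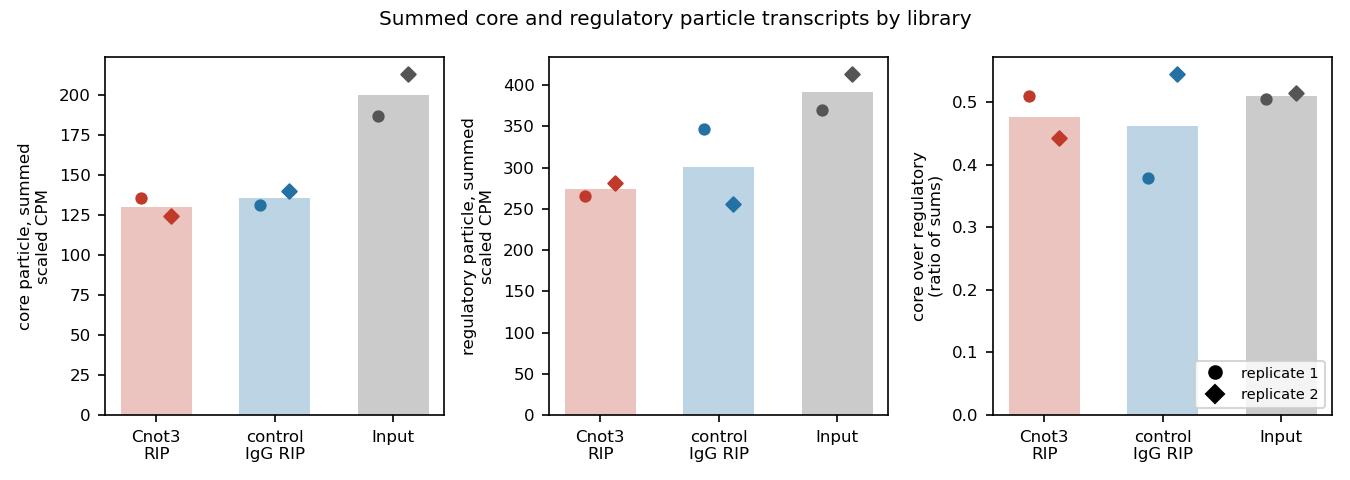
Summed scaled CPM of the core particle genes (left) and the regulatory particle genes (middle), and the ratio of the sums (right), for Cnot3 RIP, control IgG RIP and Input. Bars are group means and points are the 2 libraries of a group; on this scale, though not in CPM as deposited, every immunoprecipitate lies below both Input libraries in the sums, and the ratios run from 0.378 to 0.545.

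Against control IgG RIP, no proteasome subunit transcript passed the threshold in Cnot3 RIP. Of the 39 members, 37 had enough reads to be tested (17 core and 20 regulatory), and with limma 0 of 37 were higher and 0 of 37 were lower with an adjusted p under 0.05 (Benjamini-Hochberg). Over all 13010 genes tested the same rule called 1.54% higher and 0.277% lower. No member reached an unadjusted p under 0.05 either, while 1423 of all genes did so higher and 823 lower. On the recovered reads, edgeR's quasi-likelihood test also called 0 members, beside 242 higher and 54 lower of all genes. DESeq2 called 0 members as well, beside 573 higher and 162 lower of all genes. The median log2 fold change was −0.09 for the core particle and −0.07 for the regulatory particle, beside −0.003 for all genes tested. For the core and the regulatory particle the medians were −0.19 and 0.0098 when replicate 1 of Cnot3 RIP was left out, 0.03 and −0.13 when its replicate 2 was, −0.21 and 0.04 without control IgG RIP replicate 1, and −0.17 and −0.27 without control IgG RIP replicate 2, so that each particle had values of both signs. The values of single members ran from −0.65 to 0.22, with 30 of 37 below 0, and the lowest and highest ends of their 95% intervals were −1.37 and 1.05. Scaled by library size alone, 5 of 37 were below 0, and the median of all genes moved from −0.003 to 0.30.

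Psma3, an alpha ring subunit, had the lowest value of all members in this comparison. It stood at 0.997 and 0.869 scaled CPM in Cnot3 RIP, 1.50 and 1.72 with control IgG, and 1.29 and 0.917 in Input, from 14 to 38 reads per library. Both Cnot3 RIP libraries were below both control IgG RIP libraries, and Input overlapped Cnot3 RIP. The log2 fold change over control IgG RIP was −0.65 (SE 0.32, limma adjusted p = 0.341). Psma1, another alpha subunit, was at the other end, with 15.9 and 21.7 scaled CPM in Cnot3 RIP, 16.4 and 15.4 with control IgG, and 17.0 and 21.3 in Input. Cnot3 RIP overlapped both other groups (log2 fold change over control IgG RIP 0.22, SE 0.24, limma adjusted p = 0.748).

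Among the beta subunits the lowest value over control IgG RIP was that of Psmb10 and the highest that of Psmb1, a non-catalytic ring subunit. Psmb1 stood at 11.4 and 13.2 scaled CPM in Cnot3 RIP, 10.2 and 11.7 with control IgG, and 15.3 and 17.3 in Input, so that the immunoprecipitates overlapped (log2 fold change over control IgG RIP 0.16, SE 0.22). Among the ATPases, Psmc5 had 12.8 and 10.6 scaled CPM in Cnot3 RIP, 16.4 and 14.2 with control IgG, and 19.4 and 20.5 in Input. Its 3 groups did not overlap, and the log2 fold change over control IgG RIP was −0.38 (SE 0.22, limma adjusted p = 0.444). Psmd13, a lid subunit of the regulatory particle, had 10.1 and 10.3 scaled CPM in Cnot3 RIP, 13.9 and 11.6 with control IgG, and 12.4 and 13.0 in Input, with a log2 fold change over control IgG RIP of −0.31 (SE 0.22). Both Cnot3 RIP libraries were the lowest of the 6 for this gene.

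Groups separated fully for few members in this comparison. Both Cnot3 RIP libraries were above both control IgG RIP libraries for 1 of 37 members, Psmd7, against 24% of all genes, and below both for 8 of 37 (Psma3, Psma6, Psmb2, Psmc3, Psmc5, Psmd10, Psmd13 and Psmd14), against 21.8% of all genes. The count below is near the share over all genes.

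Against Input, 3 of 37 proteasome subunit transcripts were lower in Cnot3 RIP with limma (Psmc1, Psma2 and Psmb10) and 0 were higher, while 2.47% of all genes were called lower and 5.86% higher. With a replicate block 0 of 37 were called. The median log2 fold change over Input was −0.58 for the core and −0.55 for the regulatory particle, beside 0.06 for all genes tested; with TMM factors the values of all 37 members were below 0, as were 46.2% of all genes. At an unadjusted p under 0.05, 19 of 37 members were lower and 0 higher, beside 1531 lower and 2011 higher of all 13010 genes. Within the regulatory particle, the 6 ATPases had a median of −0.81 and the 14 Psmd subunits one of −0.41. Within the core particle, the medians were −0.62 for the 7 alpha and −0.56 for the 10 beta subunits. The difference between particles or subfamilies was not tested.

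The sign of these values rests on the scaling, and the place of the members below the median of all genes does not. Scaled by library size alone, the median of all genes in Cnot3 RIP against Input moved from 0.06 to 1.02. That of the members moved to 0.44, and 9 of 37 members were called higher and 0 lower. Of all 13010 genes tested, 7752 were then called higher and 7 lower. The members were then 0.58 below the median of all genes, against 0.63 with TMM factors, and 36 of 37 were below that median, against 37 of 37.

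With TMM factors, 8 of the 10 cardiomyocyte markers were, like most members, below 0 over Input in Cnot3 RIP and also in control IgG RIP, with a median log2 fold change of −0.82 in Cnot3 RIP, and −0.89 with control IgG. The markers above 0 were Myh6 (log2 fold change 0.75 in Cnot3 RIP and 0.80 with control IgG) and Ryr2 (0.46 and 0.82), neither of them called. In Cnot3 RIP over Input, 3 of 10 were called lower by limma, beside 2.47% of all genes. They were the light chain genes Myl2 (limma adjusted p = 0.0322) and Myl3 (log2 fold change −1.16) and the natriuretic peptide gene Nppa (−1.42). In control IgG RIP over Input only Nppa was called (−1.24, limma adjusted p = 0.0312), beside 1.49% of all genes lower. Scaled by library size alone, the medians of the markers became 0.26 in Cnot3 RIP, and −0.13 with control IgG, and no marker was called lower. With that scaling 3 markers were called higher in Cnot3 RIP and 2 with control IgG, beside 7752 and 4383 of all 13010 genes. The part of cardiomyocyte RNA in the values of the members was not tested. These values compare RNA from whole heart lysates, and measure neither the number of cells of a type nor the RNA per cell.

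Psmc1, an ATPase of the ring (chr12:100110154-100123405, plus strand), stood at 8.44 and 9.86 scaled CPM in Cnot3 RIP, 9.11 and 8.97 with control IgG, and 17.5 and 16.4 in Input. Both immunoprecipitates were far below Input and overlapped each other. The log2 fold change of Cnot3 RIP over Input was −0.88 (SE 0.22, limma adjusted p = 0.0414), and that of control IgG RIP over Input −0.89 (SE 0.22, limma adjusted p = 0.0552). Psma2, an alpha ring subunit (chr13:14613240-14674236, plus strand), had 5.81 and 5.04 scaled CPM in Cnot3 RIP, 5.31 and 6.30 with control IgG, and 10.4 and 10.6 in Input. Its immunoprecipitates also overlapped below Input, with a log2 fold change of Cnot3 RIP over Input of −0.93 (SE 0.23, limma adjusted p = 0.0414). In control IgG RIP the value over Input was −0.84 (SE 0.23, limma adjusted p = 0.0750).

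Psmb10, the inducible beta subunit that takes the place of Psmb7 in the immunoproteasome (chr8:105935735-105938444, minus strand), was the third member called. It had 4.63 and 3.24 scaled CPM in Cnot3 RIP, 4.44 and 5.39 with control IgG, and 8.31 and 7.87 in Input. Again the immunoprecipitates overlapped and Input was above both. The log2 fold change was −1.02 for Cnot3 RIP over Input (SE 0.26, limma adjusted p = 0.0464) and −0.70 for control IgG RIP over Input (SE 0.26, limma adjusted p = 0.142). Coordinates are those of GENCODE on GRCm38 (mm10).

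These 3 calls sat close to the threshold. edgeR's quasi-likelihood test on the recovered reads called the same 3 genes, beside 351 of all 13010 genes lower. DESeq2 called 10 members, among them these 3, beside 523 of all genes lower. With no filter on low values 0 members passed, and with the replicate block 0 as well (adjusted p = 0.0687 for Psmb10, 0.0697 for Psma2 and 0.0731 for Psmc1 with limma). No fit with 1 library left out kept all 3 calls. In those fits the median log2 fold change of the members over Input ran from −0.68 without Cnot3 RIP replicate 1 to −0.52 without Cnot3 RIP replicate 2. Among the 26 members that share at most 10% of their 50-base words with another gene, Psma2 and Psmb10 were called.

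Counted without a test on the TMM scale, both Cnot3 RIP libraries lay below both Input libraries for 31 of 37 members, against 26.9% of all genes, and above both for 0 of 37, against 30.6% of all genes. The 6 members whose groups overlapped were Psma1, Psma3, Psma5, Psmb9, Psmd2 and Psmd5. All 6 ATPases and 9 of the 10 beta subunits were among those that separated.

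With TMM factors, control IgG RIP was on the same side of Input for nearly all members. None was called over or under Input by limma (0 of 37, beside 2.58% of all genes higher and 1.49% lower). Before adjustment, 14 members had a limma p under 0.05, all lower. By that cut 1519 of all 13010 genes were lower, and 1725 were higher. edgeR's quasi-likelihood test and DESeq2 also called 0. The median log2 fold change over Input was −0.55 for the core and −0.38 for the regulatory particle, beside 0.01 for all genes. Without control IgG RIP replicate 1 the order of the particles turned, at −0.50 for the core and −0.57 for the regulatory particle, and without replicate 2 the values were −0.63 for the core and −0.26 for the regulatory particle. Of 37 members, 35 were below 0, the exceptions being Psma3 at 0.47 (SE 0.32) and Psmd13 at 0.005 (SE 0.22). Both control IgG RIP libraries lay below both Input libraries for 27 of 37 members, against 29.3% of all genes, and above both for 1, Psma3, against 29.7%. With scaling by library size alone the median of the members became 0.27 and that of all genes 0.70, which left the members 0.43 below it, against 0.45 with TMM factors. The comparisons with Input share the Input libraries, so their values are given side by side only.

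**Figure D2:**
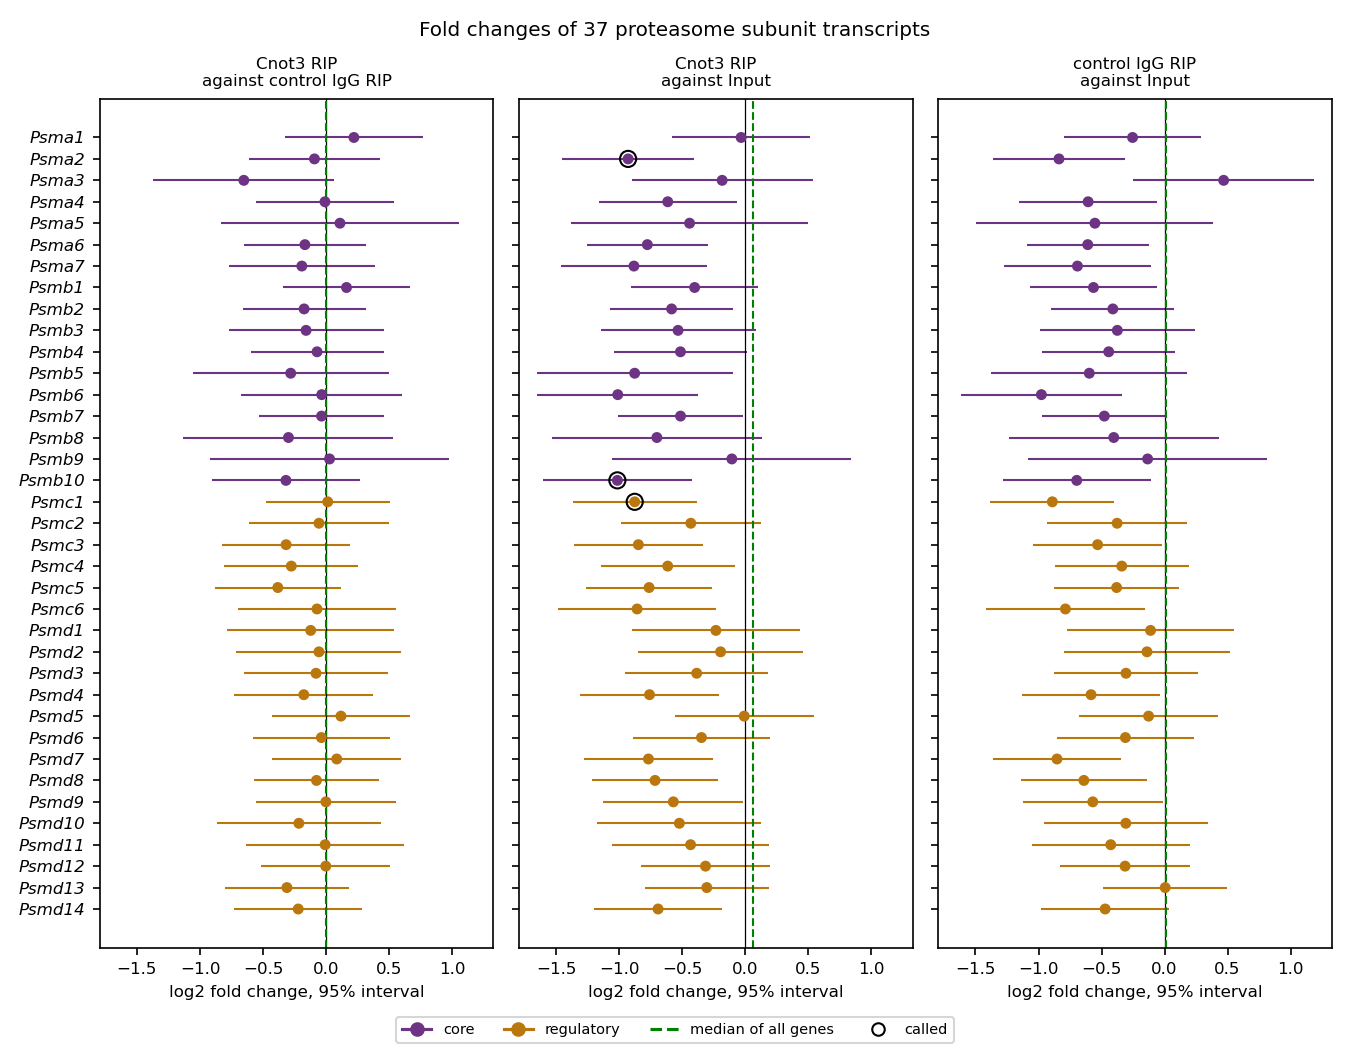
Log2 fold change of the 37 tested members with 95% intervals (limma) in Cnot3 RIP against control IgG RIP (left), Cnot3 RIP against Input (middle) and control IgG RIP against Input (right), core particle genes above regulatory ones. The dashed line is the median of all genes tested and rings mark the 3 called members; values centre near 0 on the left and below the dashed line in the other panels, where scaling by library size alone moves both the members and the line above 0.

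The proteolytic subunits were read at different depths. Psmb6, the caspase-like subunit, had 11.5 and 8.51 scaled CPM in Cnot3 RIP, 8.25 and 12.5 with control IgG, and 17.6 and 23.2 in Input, and Psmb7, the trypsin-like subunit, had 16.0 and 12.6 in Cnot3 RIP, 14.6 and 14.6 with control IgG, and 20.3 and 20.5 in Input. For both, the immunoprecipitates overlapped and Input was higher. Over Input the log2 fold change of Psmb6 was −1.01 in Cnot3 RIP (SE 0.28, limma adjusted p = 0.0584) and −0.98 in control IgG RIP (SE 0.28, limma adjusted p = 0.0834). Psmb7 had −0.51 over Input in Cnot3 RIP, and −0.48 with control IgG (SE 0.22 each). Psmb5, the chymotrypsin-like subunit, stood at 2.42 and 1.50 scaled CPM in Cnot3 RIP, 2.31 and 2.45 with control IgG, and 2.77 and 4.97 in Input. Its Input libraries were above the others but far apart from each other, and the log2 fold change of Cnot3 RIP over Input was −0.88 (SE 0.35, limma adjusted p = 0.141).

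Psmb8 and Psmb9, which take the places of Psmb5 and Psmb6 in the immunoproteasome of immune and interferon-treated cells, were among the lowest members. Psmb8 had 1.28 and 0.989 scaled CPM in Cnot3 RIP, 0.980 and 2.08 with control IgG, and 2.22 and 1.79 in Input. Psmb9 had 0.819 and 0.600 scaled CPM in Cnot3 RIP, 0.404 and 1.09 with control IgG, and 0.831 and 0.724 in Input, from 7 to 24 reads per library. Both genes had control IgG RIP libraries on either side of the Cnot3 RIP libraries. Their log2 fold changes of Cnot3 RIP over control IgG RIP were −0.30 for Psmb8 (SE 0.37) and 0.03 for Psmb9 (SE 0.42), with limma adjusted p = 0.785 and 0.990.

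Markers of the cells in which the immunoproteasome is prominent were present in all libraries. The 12 leukocyte markers summed to 109.5 to 131.3 scaled CPM in Cnot3 RIP, 134.8 to 148.5 with control IgG, and 120 to 169.2 in Input. The 9 genes of interferon response and antigen presentation summed to 120.1 to 128.9 in Cnot3 RIP, 102.7 to 120.7 with control IgG, and 122.1 to 138.9 in Input. No gene of these lists was at 0 in all libraries, and none was called between Cnot3 RIP and control IgG RIP. In Cnot3 RIP over Input, the lysozyme gene Lyz2 was lower (log2 fold change −0.96, limma adjusted p = 0.0464) and the interferon regulator Irf1 higher (1.66, limma adjusted p = 0.0301). Nlrc5, which drives MHC class I genes, was higher in control IgG RIP over Input (1.31, limma adjusted p = 0.0369). The part of these cells in the values of Psmb8, Psmb9 and Psmb10 was not tested.

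The subunits that handle ubiquitin belonged to the regulatory particle. Psmd4, a ubiquitin receptor, stood at 11.5 and 10.4 scaled CPM in Cnot3 RIP, 13.7 and 11.2 with control IgG, and 16.0 and 21.9 in Input. Psmd14, the deubiquitinase that strips the chain as the substrate enters, had 6.80 and 6.50 in Cnot3 RIP, 7.21 and 8.43 with control IgG, and 11.5 and 10.4 in Input. For both, every immunoprecipitate lay below every Input library, with log2 fold changes of Cnot3 RIP over Input of −0.76 for Psmd4 (SE 0.24, limma adjusted p = 0.0851) and −0.69 for Psmd14 (SE 0.22, limma adjusted p = 0.0876). Psmd2, the large base subunit on which shuttle proteins dock, had 32.8 and 36.8 scaled CPM in Cnot3 RIP, 47.8 and 27.3 with control IgG, and 35.0 and 45.3 in Input. Here control IgG RIP held both the highest and the lowest library, and the log2 fold change of Cnot3 RIP over Input was −0.20 (SE 0.29, limma adjusted p = 0.713).

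The spread within control IgG RIP was similar for the partner of Psmd2. Psmd1, the other large base subunit, had 34.2 and 40.6 scaled CPM in Cnot3 RIP, 55.3 and 29.8 with control IgG, and 42.6 and 45.2 in Input. Replicate 1 of control IgG RIP was again the highest library and replicate 2 the lowest.

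**Figure D3:**
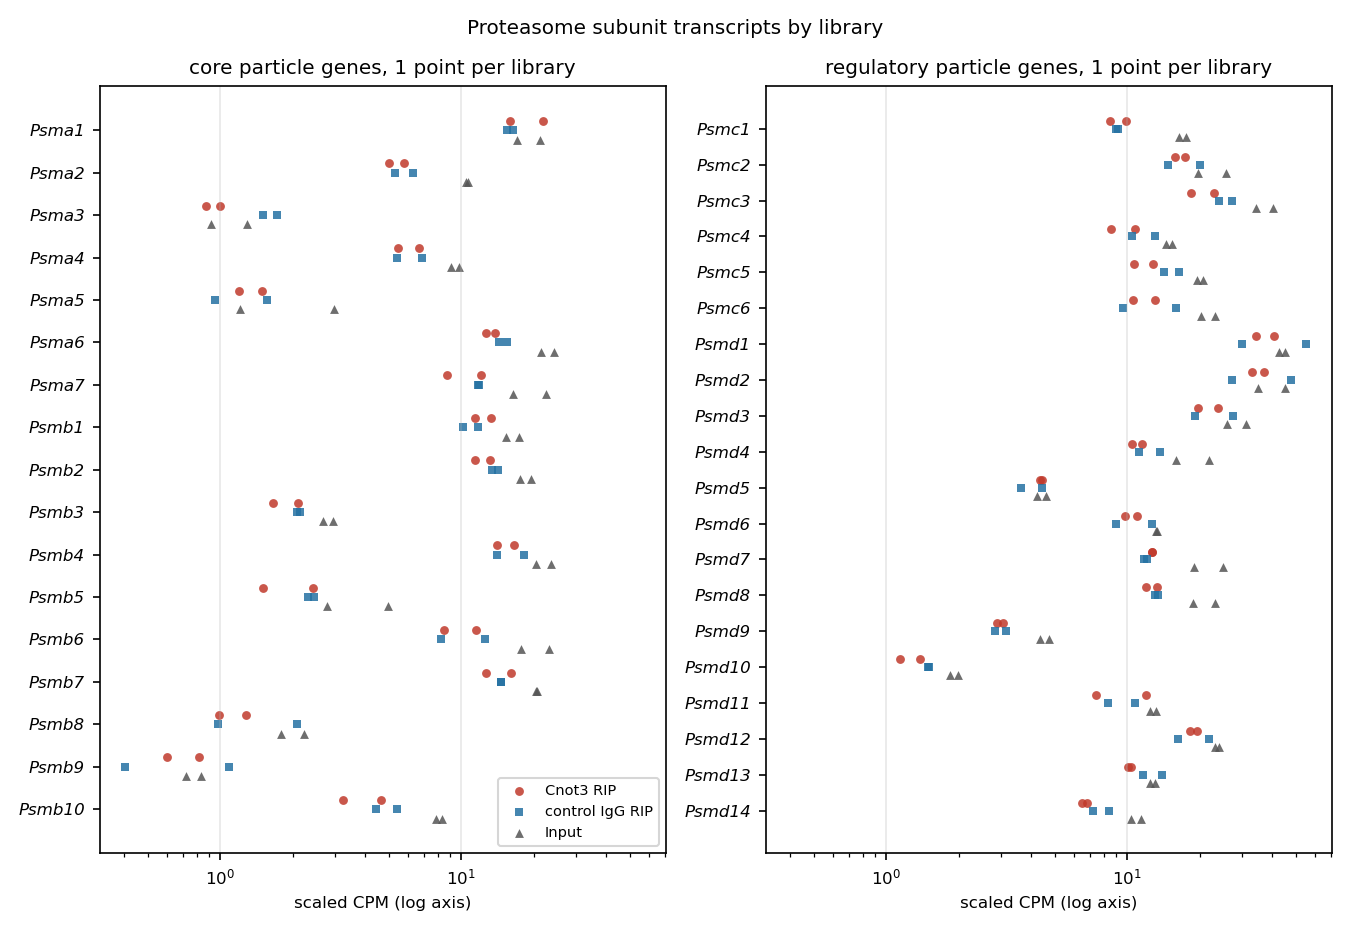
Scaled CPM (log axis) of the 37 tested members in each library, core particle genes on the left and regulatory ones on the right, with Cnot3 RIP drawn above control IgG RIP and Input for each gene. Most members run in 1 order, with Cnot3 RIP and control IgG RIP mixed and Input to their right; Psmd1 and Psmd2 have widely spaced control IgG RIP points, and on CPM scaled by library size alone the immunoprecipitates move to the right relative to Input.

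Proteasome transcripts are short, and short transcripts in general had lower fold changes over Input than long ones in the immunoprecipitates. The median transcript length was 1540 bases over the 37 members (1183 for the core and 1710.5 for the regulatory particle), against 3118 bases over the 12032 tested genes with an annotated coding transcript. As a description across genes of the same libraries, Spearman's rho of length with the log2 fold change of Cnot3 RIP over Input was 0.385 over the members and 0.491 over all genes. In control IgG RIP against Input it was 0.335 over the members and 0.451 over all genes. In Cnot3 RIP against control IgG RIP it was 0.106 over the members and 0.109 over all genes.

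Beside genes of like length the members were closer to the rest, yet mostly still lower. Transcripts under 1000 bases had a median log2 fold change of Cnot3 RIP over Input of −0.88 for the 5 members and −0.71 for all genes of that range. From 1000 to 1500 bases it was −0.52 for 13 members and −0.46 for all genes. From 1500 to 2000 bases it was −0.70 for 10 members and −0.26 for all genes, and from 2000 to 3000 bases −0.43 for 7 members and −0.07 for all genes. The gap was small below 1500 bases and wider above. In control IgG RIP against Input the first range went the other way, with −0.60 for the members and −0.67 for all genes, and the range from 1500 to 2000 bases had −0.50 and −0.27. The part of length in the fold changes of the members was not tested.

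**Figure D4:**
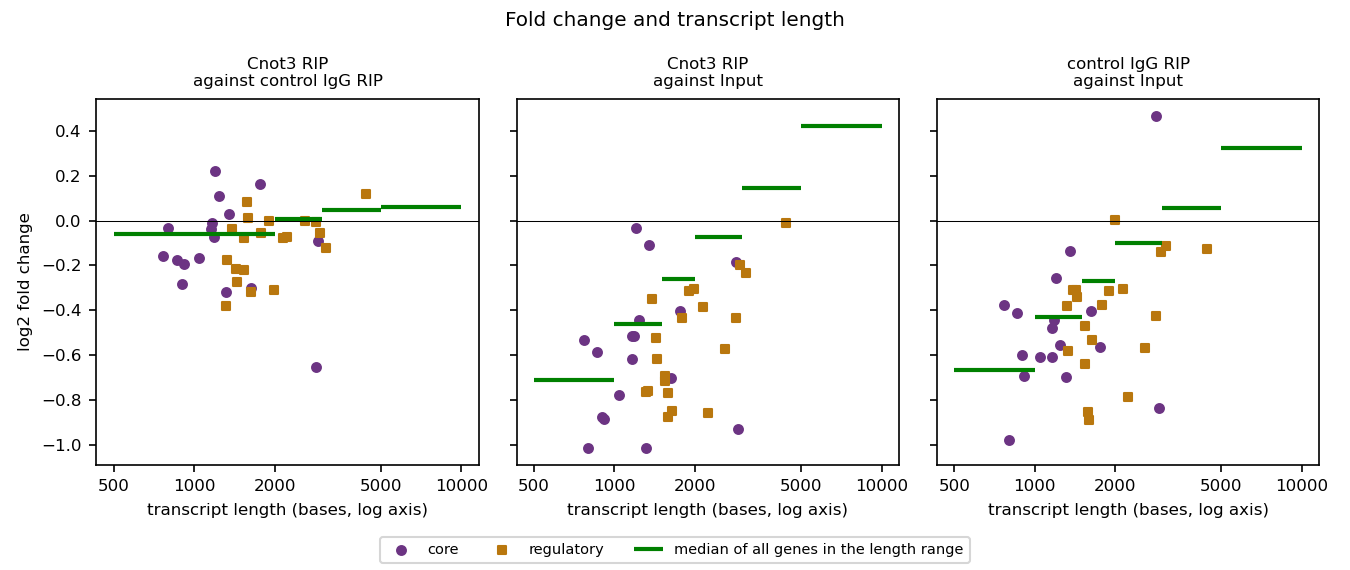
Log2 fold change of each tested member against its transcript length in bases (log axis), with the median of all genes in each length range as a bar, for Cnot3 RIP against control IgG RIP (left), Cnot3 RIP against Input (middle) and control IgG RIP against Input (right). The bars climb with length in the comparisons with Input, and the members gather at the short end, most of them at or below the bar of their range; scaling by library size alone lifts bars and points together.

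The 3′ untranslated regions of the members were short as well, and held few AU-rich motifs, the kind of element to which decay factors such as tristetraprolin bind before they bring CCR4-NOT to an mRNA. The median 3′ untranslated region was 213 bases in the members and 1055.5 bases over all genes with a coding transcript. The pentamer ATTTA, searched on the transcript strand, was in 12 of 37 members (32.4%), against 67.6% of all genes. Per kilobase of 3′ untranslated region the members held 1.93 such pentamers and all genes 1.83. The heptamer TATTTAT, which contains the pentamer, was in 3 of 37 members (8.11%), against 28.9% of all genes. A match describes the letters only and is not a binding site.

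The 3 members with the heptamer were Psma2, Psmb1 and Psmc6, and their matches are shown because this is the motif class through which CCR4-NOT is known to be recruited. Each window below is 29 bases of the GENCODE transcript, 5′ to 3′, with the heptamer in capitals; the first pair of Psmb1 windows overlap, and Psmb1 also holds 6 pentamers in all.
Psma2 (chromosome 13), base 1000 of the 3′ untranslated region: agttactcgtgTATTTATtgtatatctgt
Psmb1 (chromosome 17), base 326: ttatctggataTATTTATttattttgaga
Psmb1 (chromosome 17), base 330: ctggatatattTATTTATtttgagattta
Psmb1 (chromosome 17), base 395: acgtgcatgcaTATTTATgtgaacagggt
Psmc6 (chromosome 14), base 938: aaaattgagatTATTTATagttaattctt
The log2 fold changes of Cnot3 RIP over control IgG RIP were −0.09 for Psma2 (SE 0.23), 0.16 for Psmb1 (SE 0.22) and −0.07 for Psmc6 (SE 0.28). These lie within the range of the members without the heptamer, and all had limma adjusted p of at least 0.813.

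The level of the members relative to each other was read in Input per kilobase of coding sequence. On this scale most subunits stood close together. Of the 37 tested members, 27 lay between 10.1 and 31.0 scaled CPM per coding kilobase, a 3.06-fold range with a median of 17.2. Per kilobase of whole transcript the same 27 were spread more widely, with means from 3.62 for Psma2 to 25.6 for Psmb6. Over all tested members the 17 core genes had a median of 15.0 and the 20 regulatory genes one of 15.04, while among these 27, a division made after the values were seen that leaves out 7 core and 3 regulatory members, the medians were 25.3 (10 core) and 15.9 (17 regulatory). The order of the particles depended on the length used. Per kilobase of whole transcript, the medians over all tested members in the 2 Input libraries were 7.77 and 8.37 for the core. For the regulatory particle they were 11 and 11.6. Per coding kilobase Psma6, an alpha subunit, was the highest at 31.0 ± 2.79, next to Psmb2 at 30.7 ± 2.41 and Psmb6 at 28.6 ± 5.53 (SD, n = 2 each), which did not differ beyond their spread. At the lower edge of the group stood Psmd11, a lid subunit, at 10.1 ± 0.446, with Psmd13 at 11.2 ± 0.384 above it.

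The 10 members below that group fell into 3 kinds, likewise set after their values were seen. The immunoproteasome subunits were at 1.18 ± 0.115 for Psmb9, 2.42 ± 0.367 for Psmb8 and 9.88 ± 0.381 scaled CPM per coding kilobase for Psmb10 (SD, n = 2 each). Their constitutive counterparts stood higher, Psmb6 at 28.6 ± 5.53, Psmb5 at 4.89 ± 1.97 and Psmb7 at 24.6 ± 0.172. The level of Psmb5 is uncertain, because much of its coding sequence is shared with pseudogenes, as given below. The assembly chaperones of the ATPase ring, which leave before the proteasome is complete, were at 2.76 ± 0.135 for Psmd10, 2.92 ± 0.195 for Psmd5 and 6.81 ± 0.415 for Psmd9. Psmd5 had 4.34 and 4.41 scaled CPM in Cnot3 RIP, 4.44 and 3.62 with control IgG, and 4.62 and 4.20 in Input, so that all 3 groups overlapped. At 4397 bases it was also the longest transcript of the members, and its log2 fold change of Cnot3 RIP over Input was −0.01 (SE 0.24, limma adjusted p = 0.986).

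The remaining 4 were ordinary ring subunits whose coding sequence is largely shared with annotated pseudogenes. Psma3 stood at 1.45 ± 0.347, Psma5 at 2.88 ± 1.71, Psmb3 at 4.57 ± 0.307 and Psmb5 at 4.89 ± 1.97 scaled CPM per coding kilobase (SD, n = 2 each). Of their coding 50-base words, 85.6% in Psma3, 79.1% in Psma5, 70.7% in Psmb3 and 56.8% in Psmb5 also occur in a pseudogene of the GENCODE annotation. These were the 4 highest shares of the 37 tested members. The next 5, Psma2, Psmc1, Psmd2, Psmd11 and Psma4, shared 15.5% to 39.0% and stood at 10.1 to 15.0 scaled CPM per coding kilobase. Over the 34 tested members outside the immunoproteasome, Spearman's rho between the shared part and the level was −0.487, given as a description of the same libraries. The immunoproteasome subunits were left out after the values were seen, and they run against this relation. Their shared part was 0, and their levels ranked 1 (Psmb9), 3 (Psmb8) and 10 (Psmb10) from the lowest of the 37. A rho over all 37 is not given. How reads that match several places were counted is not given in the sources used here, and its part in these levels was not tested. The counts of these 4 genes are therefore uncertain in all 6 libraries.

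How close the copies are is seen in 60-base stretches of the processed transcripts that differ by 1 base from the pseudogene. Capitals mark that base, and the substitution gives the subunit's base, its position from the 5′ end of the stretch and the pseudogene's base.
Psma5 (chromosome 3): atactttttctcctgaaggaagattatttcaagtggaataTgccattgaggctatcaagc
Gm8394 (chromosome 10), T41C: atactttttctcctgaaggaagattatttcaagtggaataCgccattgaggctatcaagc
Psmb3 (chromosome 11): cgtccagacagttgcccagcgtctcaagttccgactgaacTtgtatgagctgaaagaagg
AC114990.1 (chromosome 16), T41C: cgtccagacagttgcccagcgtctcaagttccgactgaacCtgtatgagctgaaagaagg
Psmb5 (chromosome 14): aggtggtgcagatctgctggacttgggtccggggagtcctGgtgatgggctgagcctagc
Gm3375 (chromosome 7), G41A: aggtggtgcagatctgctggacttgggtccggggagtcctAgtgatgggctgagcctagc
A read of 50 bases that lies inside such a stretch always covers the marked base, so it differs from the other copy by that 1 base.

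**Figure D5:**
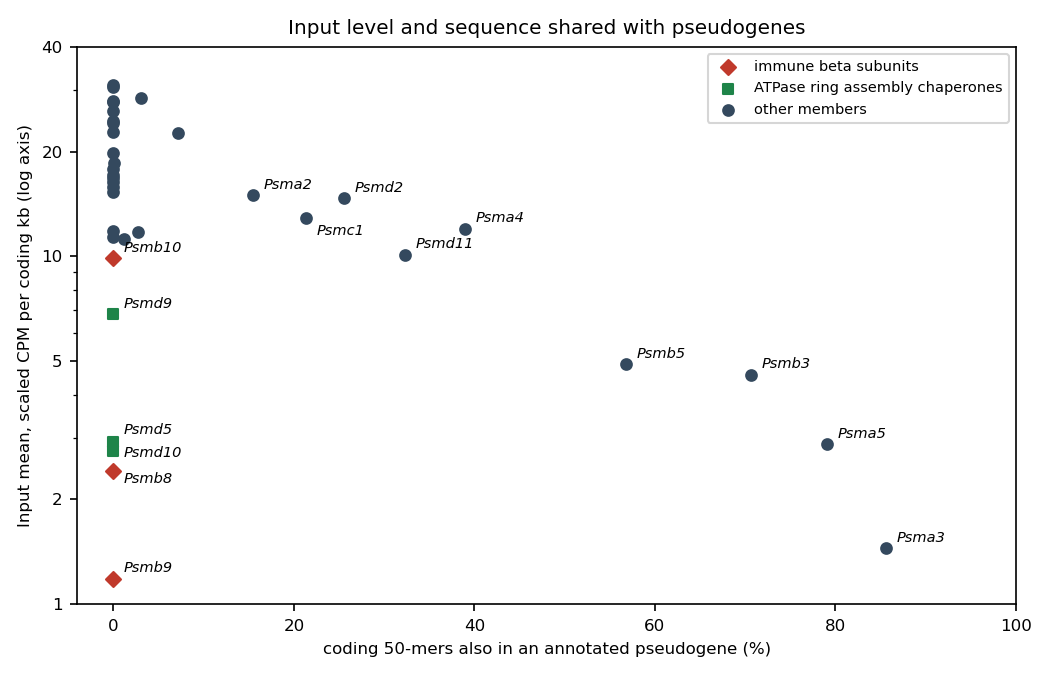
Mean Input level per kilobase of coding sequence (log axis) of the 37 tested members against the percentage of their coding 50-base words that an annotated pseudogene also holds. Psma3, Psma5, Psmb3 and Psmb5 lie at the lower right, with shares of 56.8% to 85.6% and levels under 5 scaled CPM per coding kilobase, while the other low points are immunoproteasome subunits and assembly chaperones with no coding word shared with a pseudogene.

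Sequence shared with a neighbouring gene concerned other members. Psmb7 shared 28.1% of its transcript's 50-base words with the overlapping gene Nek6, and Psmb9 shared 12.5% with Tap1, a transporter of antigen peptides. Psmd13 shared 15.8% with other genes, most of it with Sirt3, while 0.67% of its words occur in a pseudogene. The strand setting of the counting is not given in the sources used here, so reads of these members and of genes that overlap them may be split or mixed.

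The tissue-restricted members had almost no reads. Psma8, the alpha subunit of the testis proteasome, had 5 and 2 reads in Cnot3 RIP, 3 and 3 reads with control IgG, and 4 and 2 reads in Input. Psmb11, the beta subunit of the thymus proteasome, had 0 reads in both Cnot3 RIP libraries, 3 and 5 with control IgG, and 0 in both Input libraries. With a count of 0, up to 3 reads remain possible, or 0.107 and 0.0899 scaled CPM in the Cnot3 RIP libraries and 0.277 and 0.145 in the Input libraries, counting error only. Both genes were left untested for low reads.

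Other genes of the pathway were taken from a list by function. Of 36 listed genes 34 were in the table and 31 were tested. In Cnot3 RIP against control IgG RIP, 0 were called higher and 0 lower by limma (1.54% and 0.277% of all genes), 16 of 31 were below 0 and the median log2 fold change was −0.02. Over Input, Cnot3 RIP had 0 higher and 2 lower (5.86% and 2.47% of all genes), with a median of −0.21 and 20 of 31 below 0, beside 37 of 37 subunits. Control IgG RIP over Input had 0 higher and 0 lower (2.58% and 1.49% of all genes), with a median of −0.23 and 19 of 31 below 0, beside 35 of 37 subunits. The lower genes included Pomp, the chaperone that matures the core particle.

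Pomp had 6.98 and 5.40 scaled CPM in Cnot3 RIP, 7.04 and 8.20 with control IgG, and 11.6 and 13.5 in Input, with a log2 fold change of Cnot3 RIP over Input of −0.999 (SE 0.24, limma adjusted p = 0.0387). Every immunoprecipitate of Pomp lay below Input.

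Nfe2l1, the transcription factor that raises proteasome genes when proteolysis is blocked, stood at 143.6 and 156.3 scaled CPM in Cnot3 RIP, 133.8 and 124.1 with control IgG, and 172.8 and 239 in Input. Both Cnot3 RIP libraries were above both control IgG RIP libraries, yet the log2 fold change between them was 0.22 (SE 0.24, limma adjusted p = 0.752). Psme4, an alternative activator that caps the core particle in place of the regulatory particle, had 218.6 and 387.7 scaled CPM in Cnot3 RIP, 546 and 222.5 with control IgG, and 215.6 and 259.5 in Input. Per kilobase of transcript its mean was 46.7 in Cnot3 RIP, 59.2 with control IgG, and 36.6 in Input. As for Psmd1 and Psmd2, replicate 1 of control IgG RIP was the highest library, and the log2 fold change of Cnot3 RIP over control IgG RIP was −0.26 (SE 0.43, limma adjusted p = 0.848).

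The ubiquitin genes Ubb and Rps27a were listed at 0 or near 0. Ubb had 0 and 0.0599 scaled CPM in Cnot3 RIP, 0.173 and 0.272 with control IgG, and 0 and 0.193 in Input, and both genes were untested. Cells use these genes throughout, and the hemoglobin genes Hba-a1, Hbb-bs and Hbb-bt were also listed at 0 in all 6 libraries. A value near 0 in the table was therefore not read as absence of the transcript.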

How the data were processed

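RNA of whole heart lysates was sequenced as 2 libraries for each of 3 groups (Cnot3 RIP, control IgG RIP, Input), taken from the labels. The authors deposited 1 table of CPM (reads scaled to a common library total, Rn45s included) per gene symbol. Per the submitters' processing notes, the tools were TopHat2 2.1.0 with Bowtie2 2.2.5, CASAVA 1.8, FastQC and edgeR, on mm10. Not given in the sources used here are the counter, the annotation, the strand setting and the treatment of reads that match several places.

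One read was worth 0.0299 to 0.0636 CPM, and with a tolerance of 0.01 read 100% of the values were whole. TMM factors came from these recovered reads (edgeR 4.0.16). The model, fitted by limma 3.58.1 in R 4.3.3 with a trended empirical Bayes prior, took log2(scaled CPM + 0.25) over all 6 libraries with 3 group means, with 3 residual and 6.24 prior degrees of freedom. Fold changes are on that scale and understate changes of low genes. Genes passing filterByExpr at a minimum count of 10 were tested (13010 of 24421), and p-values were adjusted (Benjamini-Hochberg) over all of them; a call is an adjusted p under 0.05. Levels between genes were set per kilobase of the GENCODE M21 transcript or coding sequence (GRCm38), which also gave the sequences and the shared 50-base words.

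Alternatives were scaling by library size, DESeq2 size factors, TMM without Rn45s, a pseudocount of 1, no filter, edgeR's quasi-likelihood test and DESeq2 1.42.0 on the recovered reads, fits of only the groups compared, a replicate block and leaving out each library. Leaving out members that share over 10% of their 50-base words with another gene and a crossed pairing were added after seeing the data. The scripts were tested on simulated data. The members, the gene lists and the rule for named genes were chosen with earlier results of these data known. Values per library were given for called members, catalytic subunits and their immune counterparts, tissue-restricted members, ubiquitin receptors and the deubiquitinase, and the highest and lowest member of each subfamily over control IgG RIP; Psmd1, the members named for their level in Input and single genes of the pathway list were named after their values were seen. Floors for a count of 0 hold for counting error only, as reads are not shown to be separate molecules. Some genes of the pathway list are not reported here.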

Additional observations from a re-analysis of the deposited data

How the results depend on the processing

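For the 17 tested members named by rule, which do not include Psmd1, 255 of 255 values in Cnot3 RIP against control IgG RIP kept their side of the threshold, as did 250 of 255 in control IgG RIP against Input and 220 of 255 in Cnot3 RIP against Input. In the last comparison 24 became weaker and 4 stronger. Another 7 changed sign and were called before or after, all 7 with scaling by library size alone. Of these, 3 were called lower before and not called after (Psma2, Psmb10 and Psmc1), and 4 were called higher after and not called before. Called or not, 24 of 255 values changed sign in that comparison, 7 of them outside scaling by library size. The counts were 33 and 25 in Cnot3 RIP against control IgG RIP, and 21 and 9 in control IgG RIP against Input. Depth limits the low members, and with 2 libraries a group the calls near the threshold moved with most settings; the cause of each move was not tested.

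Scaling by library size alone moved the median of all genes over Input and turned the sign of every particle median. Against control IgG RIP the medians in Cnot3 RIP became 0.21 (core) and 0.24 (regulatory). Against Input they became 0.44 (core) and 0.44 (regulatory) in Cnot3 RIP and 0.19 (core; 0.185) and 0.36 (regulatory) in control IgG RIP. Members called higher over Input were then 9 in Cnot3 RIP and 1, Psmd13, in control IgG RIP, and 0 were lower. Of all 13010 genes tested, 7752 were then called higher and 7 lower in Cnot3 RIP, and 4383 higher and 10 lower in control IgG RIP. The log2 fold changes of Cnot3 RIP over Input became 1.03 for Psma1, 0.12 for Psma2, 0.020 for Psmb10, 0.18 for Psmc1, 0.75 for Psmd13, 0.88 for Psmd2 and 1.01 for Psmd5.

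The count of 3 members lower in Cnot3 RIP against Input (beside 321 of all genes) became 5 with DESeq2 size factors (beside 372). It became 5 with TMM on library sizes without Rn45s (beside 423), 10 with DESeq2 (beside 523) and 0 with no filter (beside 103). With only the 2 groups fitted it was 2, Psmc1 and Psmc6 (beside 270). Leaving out 1 library gave 0 to 6, with 6 without Cnot3 RIP replicate 1. In control IgG RIP against Input, 3 were lower (Psmc1, Psma2 and Psmd7) with only the 2 groups fitted, beside 431 of all 12400 genes then tested. Without a filter 1 member, Psmb11, was higher there, beside 336 of all 18620 genes then tested. A pseudocount of 1 moved the core median there to −0.46. Leaving out 1 library, the core median ran from −0.21 to 0.032 and the regulatory median from −0.27 to 0.036 in Cnot3 RIP against control IgG RIP. The ranges were −0.68 to −0.48 (core) and −0.67 to −0.51 (regulatory) in Cnot3 RIP against Input, and −0.63 to −0.49 and −0.57 to −0.26 in control IgG RIP against Input.

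The labels share replicate numbers but do not say that a number marks a shared lysate, and same-numbered libraries did not deviate together throughout: the correlation of their deviations from the group means was −0.317 for Cnot3 RIP with control IgG RIP, 0.339 for Cnot3 RIP with Input and −0.327 for control IgG RIP with Input. With the replicate block, 0 members were called in any of the 3 comparisons, where the fit without it called 3 in Cnot3 RIP against Input. In that comparison the block called 166 of all 13010 genes lower and 643 higher. A crossed pairing, added after seeing the data, called 0 members in Cnot3 RIP against control IgG RIP, beside 760 higher and 305 lower of all 13010 genes. In control IgG RIP against Input it called 5 members lower, beside 820 lower and 1050 higher of all genes.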
